A study of Mus musculus with 6 samples.

Results

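The mouse forkhead family was described here through the 44 rows of the deposited count table, of 23159 in all, whose gene symbol is Fox followed by a subfamily letter from a to s and a member number. The members fell into 19 subfamilies. Of the 44, 28 had enough counts to be tested between the sorted populations, and these came from 14 subfamilies. Forkhead proteins are transcription factors that bind DNA through a winged helix domain, and the letter in each name marks a subfamily with a related domain. In cartilage, FoxA factors are known for driving chondrocyte hypertrophy, FoxC factors for the formation of the growth plate, and FoxO factors, which insulin and Akt signaling keep out of the nucleus, for stress resistance and cell cycle exit. FoxM1 is known as an activator of mitotic genes, and FoxP1 as a repressor that works with FoxP2 and FoxP4 in skeletal development.

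RNA was measured in label-retaining chondrocytes (LRCs) and non-LRCs from the growth plates of the distal femur and proximal tibia of mice at postnatal day 49. Mice of both groups were homozygous for 4 alleles: Col2a1-tTA at *Peli2*, TRE-H2B-GFP at *Col1a1*, Col2a1-creER, and R26R-tdTomato. All received doxycycline from day 21 to day 49, which stops synthesis of the histone label, and tamoxifen on days 46 and 47, which turns on tdTomato. Each of 3 experiments gave 1 library of GFP-high, tdTomato-positive cells (about 10000 LRCs) and 1 of GFP-mid-low, tdTomato-positive cells (about 50000 non-LRCs), both sorted as CD45-negative from several pooled littermates. Because the *Col2a1* promoter drives both tTA and creER, either population is limited to cells in which this promoter was active, and LRCs were defined by their retained label. Libraries are named below by group and experiment.

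Libraries held between 18943789 and 129559872 counts, and the LRC library of experiment 2 (LRC 2) had the fewest. In LRC 2, 1731 of the 13728 genes tested had no count, against 4 to 365 in the other 5 libraries. A count of 0 there allows up to 0.143 CPM (read counts scaled to a common library total, TMM-normalized), the level of 3 counts, from counting error only. The chondrocyte markers were present in every library, with *Col2a1* at 7.0% of counts in LRC 2 and 10.2% to 17.4% in the others, and their summed level was 90660 to 242500 CPM in LRCs, against 147900 to 259900 in non-LRCs. Of the 12, 11 were lower in LRCs, and none was called by edgeR. All 8 markers of superficial articular cartilage and synovium were higher in LRCs, 5 of them called, with a summed level of 1673 to 3771 CPM against 178.7 to 333.7 CPM in non-LRCs. This difference ran in parallel with every LRC against non-LRC difference below, and its part in the forkhead results was not tested. Of these markers, the study detected *Prg4* mRNA in the growth plate resting zone as well, at a low level. From cell counts before and after digestion, it assigned essentially all freed tdTomato-positive cells to the growth plate. Endothelial markers summed to 2.44 to 6.02 CPM in LRCs, against 2.33 to 3.95 in non-LRCs, and *Cdh5*, *Kdr* and *Emcn* were at 0 in all 6 libraries. The leukocyte and erythroid markers summed to 6.20 to 8.03 CPM in LRCs, against 2.74 to 3.95 in non-LRCs, with *Hba-a1* at 0 throughout. Among osteoblast markers, *Col1a1* was called, at 154, 53.0 and 113 CPM in LRCs and 33.8, 8.20 and 23.3 CPM in non-LRCs, whereas 4 of the 6 tested were lower in LRCs and the summed level was 123 to 252 CPM, against 77.9 to 372 in non-LRCs. All 5 tested marrow stromal and adipocyte markers and all 4 tested skeletal muscle markers were lower in LRCs and none was called by edgeR, with sums of 4.21 to 12.2 and 12.3 to 23.4 CPM in LRCs, and 6.94 to 13.3 and 23.6 to 43.0 CPM in non-LRCs. *Adipoq* and *Myh2* were at 0 in all libraries. The part of these markers in the forkhead results was not tested.

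Promoter windows of 300 bases, 250 before the start site and 50 after it, were taken from RefSeq on GRCm38.p6, and 28 of the 44 members, 17 of them tested, had at least 1 window. The windows of *Foxp1* are shown because it was the member that passed the test and the only tested member with the forkhead core letters TAAACA in a window, on either strand. *Foxp1* lies on chromosome 6, minus strand, from 98925338 to 99522721, and its 3 windows are at chr6:99520944-99521243, chr6:99266466-99266765 and chr6:99028249-99028548. The window of *Foxo1* is shown because this gene had the highest level per length of the family, averaged over the 6 libraries. It is at chr3:52268087-52268386 on the plus strand, at the start of a gene that runs from 52268336 to 52353221. Capitals mark TAAACA or TGTTTA in *Foxp1* and GGGCGG or CCGCCC, the GC box, in *Foxo1*, each read 5′ to 3′ on the strand of the gene.
Foxp1 window 1: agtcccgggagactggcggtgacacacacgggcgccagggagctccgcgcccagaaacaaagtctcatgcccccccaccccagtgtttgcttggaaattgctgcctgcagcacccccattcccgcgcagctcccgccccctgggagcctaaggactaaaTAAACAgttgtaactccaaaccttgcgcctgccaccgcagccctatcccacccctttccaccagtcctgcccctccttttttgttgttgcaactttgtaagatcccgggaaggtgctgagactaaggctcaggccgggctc
Foxp1 window 2: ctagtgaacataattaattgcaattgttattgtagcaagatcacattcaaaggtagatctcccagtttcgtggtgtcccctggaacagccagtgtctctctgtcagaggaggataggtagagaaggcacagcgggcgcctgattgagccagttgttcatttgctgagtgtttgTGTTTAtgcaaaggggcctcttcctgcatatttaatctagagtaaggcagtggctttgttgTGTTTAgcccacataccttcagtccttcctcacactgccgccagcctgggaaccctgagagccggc
Foxp1 window 3: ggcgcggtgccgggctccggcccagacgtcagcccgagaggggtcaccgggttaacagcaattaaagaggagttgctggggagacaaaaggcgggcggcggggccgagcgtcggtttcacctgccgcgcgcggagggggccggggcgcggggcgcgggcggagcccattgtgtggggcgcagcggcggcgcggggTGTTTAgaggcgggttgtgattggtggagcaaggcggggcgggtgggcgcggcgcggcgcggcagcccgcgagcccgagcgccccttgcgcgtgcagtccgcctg
Foxo1: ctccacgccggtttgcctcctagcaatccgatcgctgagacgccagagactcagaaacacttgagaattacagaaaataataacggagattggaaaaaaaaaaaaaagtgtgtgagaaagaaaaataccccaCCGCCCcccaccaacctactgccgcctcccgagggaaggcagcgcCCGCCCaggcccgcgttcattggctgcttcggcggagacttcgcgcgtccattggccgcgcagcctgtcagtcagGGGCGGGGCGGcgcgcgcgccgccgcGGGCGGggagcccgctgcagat
The core TAAACA was found once in windows 1 and 3 of *Foxp1* and at 2 places in window 2. These were the 3 of 21 windows of tested members (14.3%) that held it, beside 13.4% of all 32851 promoter windows. The GC box stood at 5 places in the *Foxo1* window, of which 2 overlapped by 1 base. It stood in 85.7% of the windows of tested members and 72.7% of those of all members, against 35.7% of all windows. All windows include those of genes that were not tested. The share over the windows of genes tested was not computed for either motif, so neither share is known to be particular to the family. The marked places are matches of letters and not measured binding sites. Of the tested members, *Foxc2*, *Foxf1a*, *Foxj1*, *Foxk1*, *Foxl1*, *Foxm1*, *Foxn2*, *Foxo6*, *Foxp2*, *Foxq1* and *Foxs1* had no window in the table used.

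To ask how forkhead expression differed between LRCs and non-LRCs, the 28 tested members were read from a paired edgeR quasi-likelihood fit on all 13728 genes tested, with Benjamini-Hochberg adjustment over all of them. Calls required an adjusted p below 0.05 together with a change of 2-fold or more. *Foxp1* was higher in LRCs and was the 1 member called, beside 1.21% of all genes tested in either direction. At an unadjusted p below 0.05, 7 members were higher in LRCs and 0 lower, beside 8.89% and 9.53% of all genes. These were *Foxp1*, *Foxo1*, *Foxn3*, *Foxd2*, *Foxc1*, *Foxc2* and *Foxj3*. In all 3 experiments 9 members were higher in LRCs, beside 20.4% of all genes, and 2 (*Foxo6* and *Foxq1*) were lower, beside 26.0%. For 8 members every LRC library lay above every non-LRC library, beside 8.41% of all genes, while the reverse held for 0 members and 10.3% of all genes. The median log2 fold change (LRC over non-LRC) was 0.29 over the tested members and −0.10 over all genes tested. In all, 17 of the 28 (60.7%) had a value above 0, against 44.0% of all genes. In these bulk libraries, more cells expressing a gene and more RNA per cell cannot be told apart.

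**Figure D1:**
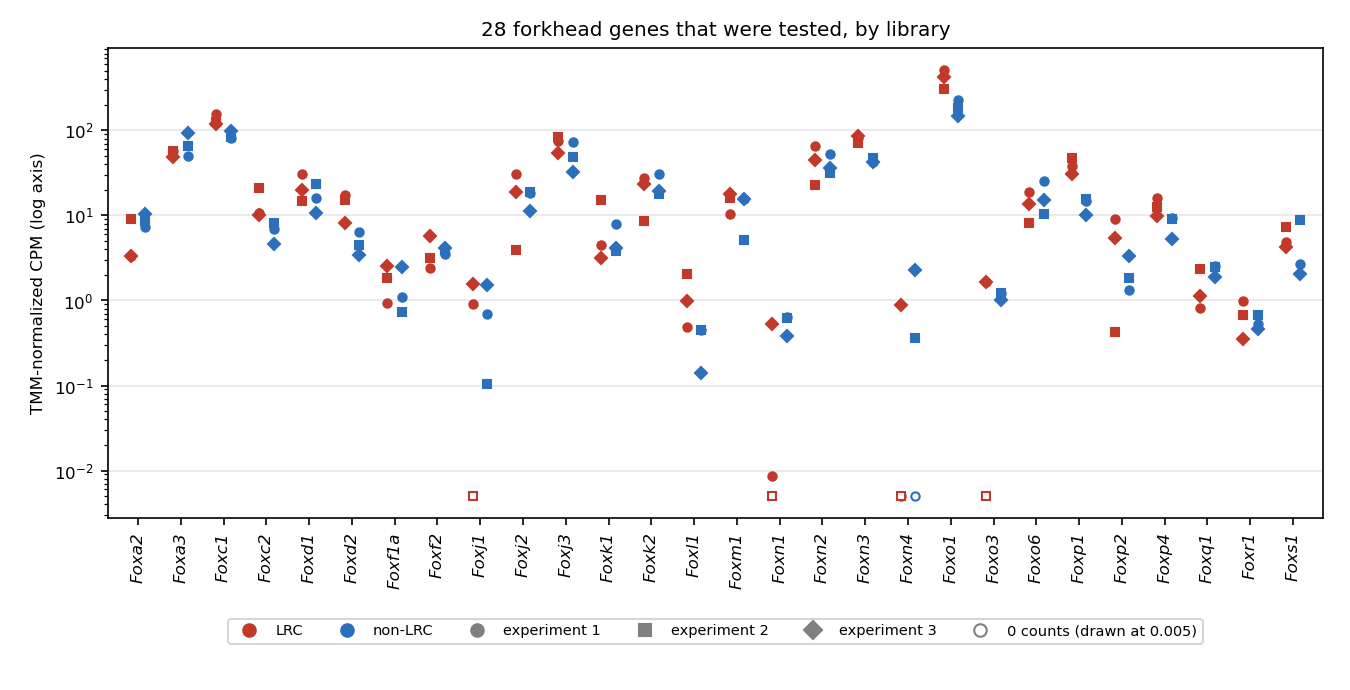
Level of each of the 28 tested forkhead genes in the 6 libraries, in TMM-normalized CPM on a log axis, with colour for the group, shape for the experiment and open symbols for 0 counts. The LRC points of *Foxp1*, *Foxo1*, *Foxn3* and *Foxd2* lie above all their non-LRC points.

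The count of members called depended on the fit and on single experiments. DESeq2 with the same block called 4 members (*Foxc2*, *Foxd2*, *Foxo1* and *Foxp1*), beside 5.81% of all genes with an adjusted p. Without the block edgeR called 0 members, beside 0.00728% of all genes (1 gene), with 6 members and 9.39% of all genes at an unadjusted p below 0.05. Without experiment 2, whose LRC library was the shallowest, 3 members (*Foxd2*, *Foxo1* and *Foxp1*) were called by edgeR, beside 3.81% of 14568 genes. In that fit 12 of 29 members had an unadjusted p below 0.05, beside 3725 of 14568 genes. Of these, 11 members were higher in LRCs, beside 1890 genes (13.0% of all genes), and 1 member, *Foxa2*, was lower. Without experiment 1 edgeR called 0 members, beside 0.254% of all genes, with 6 members and 11.3% of all genes at an unadjusted p below 0.05. Without experiment 3 it also called 0, beside 1.59%, with 5 members and 12.3% of all genes at an unadjusted p below 0.05.

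In the FoxP subfamily, *Foxp1* encodes a transcriptional repressor that is active in skeletal progenitors. Its level was 38.6, 47.0 and 30.4 CPM in LRCs of experiments 1, 2 and 3, and 14.8, 15.7 and 10.2 CPM in non-LRCs. The lowest LRC library was nearly double the highest non-LRC library, and the difference was similar in the 3 pairs, at 1.38, 1.58 and 1.58 on the log2 scale. The fitted log2 fold change was 1.51 ± 0.20 (SE), a 2.86-fold rise, with an edgeR adjusted p of 0.0372. The size changed little when single experiments were left out (1.48 to 1.58), although the edgeR adjusted p was then 0.148 without experiment 1, 0.0151 without experiment 2 and 0.0571 without experiment 3, and 0.178 without the block. *Foxp4*, a close relative of *Foxp1*, was at 16.0, 12.5 and 9.94 CPM in LRCs and at 9.34, 9.14 and 5.23 CPM in non-LRCs. These groups also did not overlap, but the log2 fold change of 0.72 ± 0.30 (SE) did not pass the test (edgeR adjusted p = 0.273). *Foxp2* scattered widely, from 0.430 to 8.97 CPM in LRCs and from 1.33 to 3.30 CPM in non-LRCs, with a log2 fold change of 0.58 (95% CI, −2.06 to 3.23). Its lowest value was the 9 counts of LRC 2, and without experiment 2 the log2 fold change was 1.75 (edgeR adjusted p = 0.101). *Foxp3*, the regulatory T cell factor, had 22 counts in all, of which 20 were in LRC 3, and was not tested.

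FoxO factors act downstream of insulin and growth factor signaling, and *Foxo1* carried most of the subfamily's reads. *Foxo1* was at 518, 308 and 419.9 CPM in LRCs, and at 226, 183 and 146 CPM in non-LRCs. All LRC values exceeded all non-LRC values, and the gap was narrowest in experiment 2, where the log2 difference was 0.75 against 1.19 and 1.52 in experiments 1 and 3. The log2 fold change was 1.16 ± 0.19 (SE), or 2.23-fold, and missed the threshold with an edgeR adjusted p of 0.0540. Across the 12 settings other than the one reported, it lay between 0.99 and 1.36, and the gene was called in 8 of them. These included DESeq2 and limma-voom with the block (adjusted p of 2.97e-07 and 0.00126), which called 5.81% and 4.52% of all genes. Without the block the edgeR adjusted p was 0.256. Of the *Foxo1* exon bases, 7.78% are shared with an antisense gene, whose reads cannot be told apart without a known strand setting. *Foxo1* gave 89.3% to 97.4% of the FoxO reads in each library, a share not divided by length. *Foxo6*, a member best known from the brain, was at 8.22 to 18.8 CPM in LRCs, against 10.3 to 25.5 in non-LRCs, with a log2 fold change of −0.31 (95% CI, −0.90 to 0.28). It was the lower in LRCs of every pair, although the ranges overlapped. *Foxo3*, a stress-responsive relative, had 0 counts in LRC 2 and lay at 1.64 and 1.65 CPM in the other LRC libraries and at 1.01 to 1.23 CPM in non-LRCs. Its log2 fold change was −0.77 (95% CI, −4.98 to 3.44) with all libraries and 0.57 without experiment 2. *Foxo4* had 90 counts in all and was not tested.

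In the FoxC subfamily, *Foxc1* and *Foxc2* encode mesenchymal factors with overlapping roles in endochondral bone. *Foxc1* was at 157, 126 and 118 CPM in LRCs and at 81.0, 84.4 and 97 CPM in non-LRCs. The LRC libraries were the higher in each pair, by a log2 difference of 0.95, 0.57 and 0.28, and the groups did not overlap. Its log2 fold change was 0.60 ± 0.18 (SE) with an edgeR adjusted p of 0.155. *Foxc2* was at 10.6, 21.1 and 10.2 CPM in LRCs and at 6.87, 8.17 and 4.61 CPM in non-LRCs. LRC 2 held the highest value, and the groups again did not overlap. For this gene the log2 fold change was 1.04 ± 0.32 (SE), with an edgeR adjusted p of 0.163 and a DESeq2 adjusted p of 0.0311. Neither gene was called by edgeR.

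**Figure D2:**
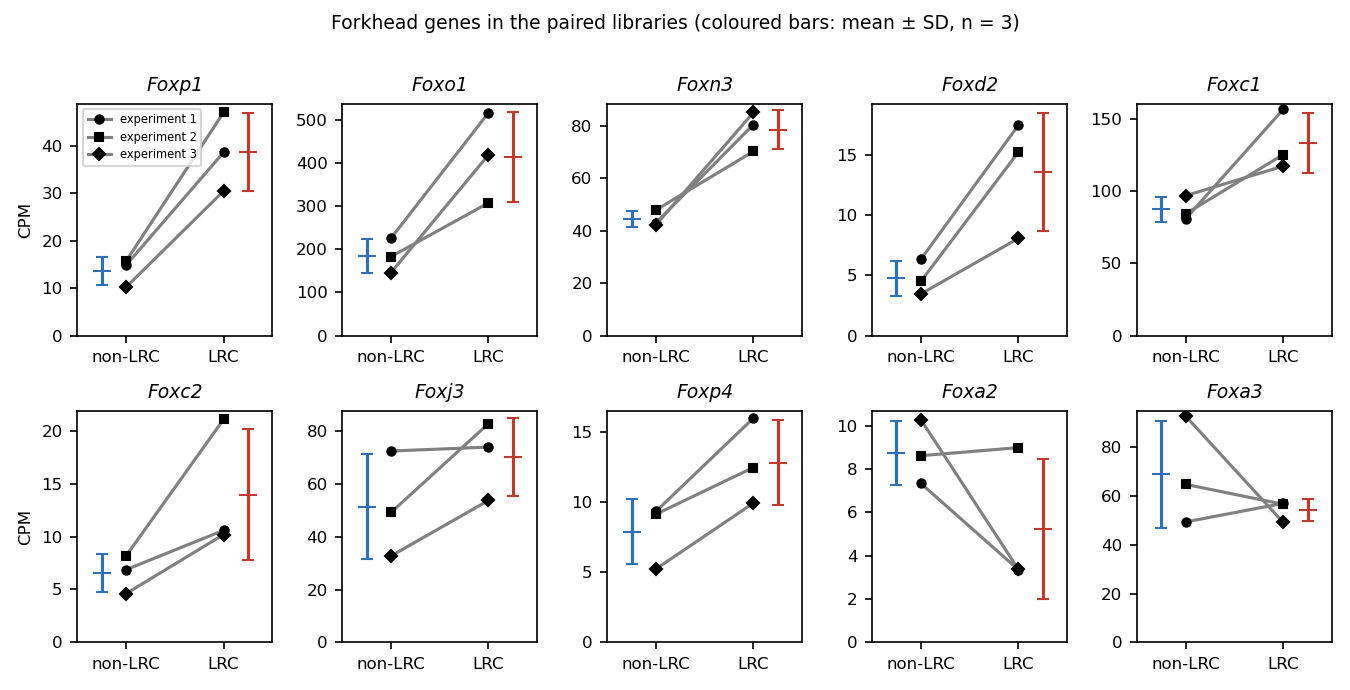
CPM of 10 forkhead genes in non-LRC and LRC libraries, with lines joining the libraries of 1 experiment and coloured bars for the mean ± SD of 3 libraries. All 3 lines go up from non-LRC to LRC in the first 8 panels, *Foxp1* to *Foxp4*, and not in those of *Foxa2* and *Foxa3*.

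FoxD factors pattern mesenchyme and kidney stroma. *Foxd2* was at 17.4, 15.2 and 8.05 CPM in LRCs and at 6.31, 4.48 and 3.44 CPM in non-LRCs. The groups did not overlap, and the log2 difference was above 1 in each of the 3 pairs. At 1.48 ± 0.32 (SE), the log2 fold change was close to that of *Foxp1*, but the error was larger and the edgeR adjusted p was 0.0887. *Foxd1* was higher in LRCs in experiments 1 and 3 and lower in experiment 2, with 14.8 to 30.6 CPM in LRCs, against 10.6 to 23.3 in non-LRCs. Its log2 fold change was 0.41 (95% CI, −0.52 to 1.33), and 0.91 without experiment 2 (edgeR adjusted p = 0.0518). *Foxd3* and *Foxd4* had 0 counts in all libraries.

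FoxA factors, the subfamily tied most closely to hypertrophic differentiation, gave no call. *Foxa3* was at 57.0, 56.6 and 49.1 CPM in LRCs and at 49.4, 64.8 and 92.7 CPM in non-LRCs, so that the groups overlapped. The non-LRC library of experiment 3 stood highest, and the log2 fold change was −0.30 (95% CI, −0.89 to 0.29; edgeR adjusted p = 0.568). *Foxa2*, which acts on hypertrophic genes together with *Foxa3*, was at 3.36, 8.99 and 3.37 CPM in LRCs and at 7.34, 8.61 and 10.3 CPM in non-LRCs. It was lower in LRCs in experiments 1 and 3, by 1.12 and 1.60 on the log2 scale, and near-equal in experiment 2. The log2 fold change was −0.90 (95% CI, −2.02 to 0.23; edgeR adjusted p = 0.365) with all libraries and −1.36 (edgeR adjusted p = 0.0507) without experiment 2. *Foxa1* had 20 counts in all, of which 13 were in non-LRC 2, and was not tested.

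FoxN and FoxJ members ranged from well detected to a few counts per library. *Foxn3*, a repressor linked to cell cycle checkpoints, was at 80.4, 70.2 and 85.1 CPM in LRCs and at 43.0, 47.9 and 42.2 CPM in non-LRCs. The groups were well apart, and the spread within each was small (SD of 7.60 CPM in LRCs, against 3.07 in non-LRCs, *n*=3). The log2 fold change was 0.82 ± 0.17 (SE; edgeR adjusted p = 0.0809), below a fold change of 2. *Foxn2*, its close relative, had similar levels in both groups, at 22.6 to 65.9 CPM in LRCs, against 31.8 to 53.0 in non-LRCs, with a log2 fold change of 0.04 (95% CI, −0.51 to 0.60). *Foxn1*, the thymic epithelial factor, and *Foxn4* were rare, with at most 0.639 and 2.27 CPM in a library. Their log2 fold changes were −3.77 and −2.37, with 95% confidence intervals that reached 2.41 and 2.69. Both had 0 or 1 count in LRC 1 and LRC 2, and the values were −2.31 and −1.27 without experiment 2. In experiment 3, *Foxn4* had 38 counts in LRCs and 113 in non-LRCs. *Foxj3* was at 74.0, 82.9 and 53.8 CPM in LRCs and at 72.5, 49.2 and 32.7 CPM in non-LRCs. It was the higher in LRCs of each pair, by only 0.03 on the log2 scale in experiment 1, and the groups overlapped. The log2 fold change was 0.50 ± 0.20 (SE; edgeR adjusted p = 0.268). *Foxj2* was higher in LRCs in experiments 1 and 3, by 0.72 and 0.76 on the log2 scale, but had only 83 counts in LRC 2, and its log2 fold change turned from −0.16 to 0.74 without experiment 2. *Foxj1*, the regulator of motile cilia, was at 0 to 1.56 CPM across the libraries, with a log2 fold change of −0.46.

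The remaining tested members had wide intervals. *Foxm1*, the mitotic activator, was at 10.5, 16.2 and 17.9 CPM in LRCs and 15.5, 5.16 and 15.7 CPM in non-LRCs, with a log2 fold change of 0.40 (95% CI, −0.74 to 1.55) that was −0.19 without experiment 2. *Foxk1* and *Foxk2*, repressors that take part in autophagy and glycolysis control, had log2 fold changes of 0.22 and −0.31, at 3.12 to 15.3 CPM and 8.51 to 31.0 CPM. In *Foxk1* the value rested on LRC 2, the highest library, and was −0.61 without experiment 2. *Foxl1*, a mesenchymal factor, had 57, 43 and 42 counts in the LRC libraries, against 47, 17 and 7 in the non-LRC ones. At 0.488, 2.06 and 0.977 CPM against 0.455, 0.445 and 0.141 CPM the groups did not overlap, though experiment 1 differed by only 0.09 on the log2 scale. Its log2 fold change was the highest of the family at 1.70, with a standard error of 1.19 and an edgeR adjusted p of 0.5004. *Foxq1* was at 0.814, 2.34 and 1.12 CPM in LRCs and at 2.52, 2.49 and 1.87 CPM in non-LRCs. It was the lower in LRCs of each pair, the groups overlapped, and the log2 fold change was −0.82 ± 0.75 (SE; edgeR adjusted p = 0.616). Of its exon bases, 66.1% are shared with a gene on the opposite strand, and the strand setting of the counting is not given in the sources used here. *Foxf1a* (now named *Foxf1*) and *Foxf2* were at 0.733 to 2.56 CPM and 2.38 to 5.75 CPM, with log2 fold changes of 0.36 and −0.13. *Foxs1*, known from perivascular cells, was at 2.05 to 8.80 CPM with 0.54, and *Foxr1* at 0.349 to 0.985 CPM with 0.16.

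**Figure D3:**
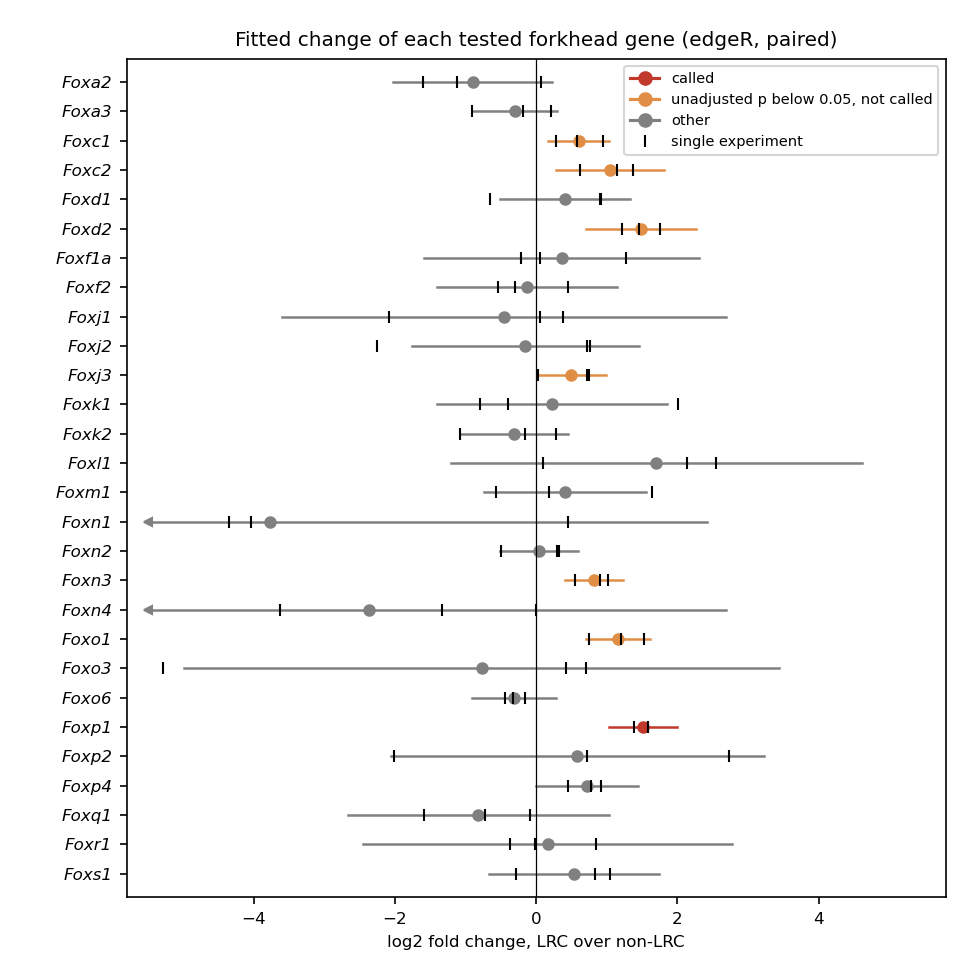
Fitted log2 fold change (LRC over non-LRC) of the 28 tested members with its 95% confidence interval as a line, clipped with an arrow at the left edge, and the values of single experiments as ticks. *Foxp1* is the 1 member called, and the intervals of all 7 members with an unadjusted p below 0.05 lie above 0.

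Of the 16 members that were not tested, 8 had 0 counts in every library. These were *Foxb2*, *Foxd3*, *Foxd4*, *Foxe1*, *Foxi1*, *Foxi2*, *Foxi3* and *Foxr2*. The other 8 had between 1 and 90 counts in all 6 libraries together. Besides *Foxa1*, *Foxo4* and *Foxp3*, these included *Foxb1*, *Foxe3*, *Foxh1* and *Foxl2*. All 8 counts of *Foxh1* and all 9 of *Foxl2* were in LRC 3. The subfamilies without a tested member included FoxB, FoxE, FoxH and FoxI.

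Members were ranked by their level per kilobase (kb) of exon, with exons merged over all annotated transcripts of a gene. The merged length can exceed that of the transcript present, which was not measured. *Foxo1* reached 59.7, 35.6 and 48.5 CPM per kb in LRCs and 26.1, 21.2 and 16.9 CPM per kb in non-LRCs. *Foxa3* followed over the 6 libraries, with 27.96, 27.8 and 24.1 CPM per kb in LRCs and 24.2, 31.8 and 45.5 CPM per kb in non-LRCs, and *Foxc1* came next. In LRCs the level of *Foxo1* was above that of *Foxa3* in each library, with ratios of 2.14, 1.28 and 2.01. In non-LRCs the order differed between libraries, with ratios of 1.08, 0.666 and 0.371, so *Foxo1* and *Foxa3* did not differ there beyond their spread. *Foxc1* averaged 22.8 ± 3.56 CPM per kb (SD, *n*=3) in LRCs, close to *Foxa3* at 26.6 ± 2.17, and 14.97 ± 1.44 in non-LRCs. Every other member stayed below 10 CPM per kb in each library. *Foxp1*, with 13751 exon bases in 34 merged blocks, averaged 2.81 ± 0.60 CPM per kb in LRCs and 0.99 ± 0.21 in non-LRCs. By this measure it was the 17th highest of the family over the 6 libraries. Summed over all members without division by length, reads of the family reached 1182, 855 and 955 CPM in LRCs and 699, 609 and 577 CPM in non-LRCs. *Foxo1* gave 43.8%, 36.0% and 44.0% of these reads in LRCs against 32.3%, 30.1% and 25.3% in non-LRCs.

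**Figure D4:**
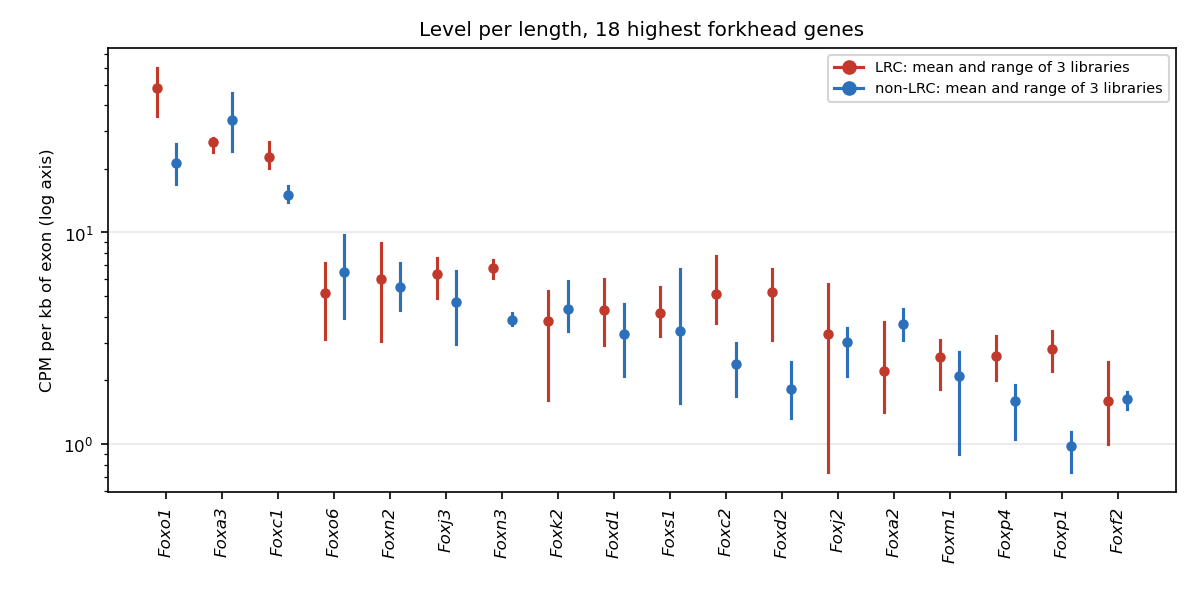
Mean and range over 3 libraries of the CPM per kb of exon, on a log axis, for the 18 forkhead genes with the highest levels, in LRCs and non-LRCs. *Foxo1*, *Foxa3* and *Foxc1* stand above 10 CPM per kb in both groups, and the others lie below.

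Position and gene structure were features that the choice of members did not use. Some members are neighbours on GRCm38, and differences between neighbours were not tested. On chromosome 13, *Foxq1*, *Foxf2* and *Foxc1* lie within 256 kb (chr13:31556134-31812476), with log2 fold changes of −0.82, −0.13 and 0.60. On chromosome 8, *Foxf1a*, *Foxc2* and *Foxl1* lie within 46.3 kb (chr8:121084386-121130644), with 0.36, 1.04 and 1.70. Of these 6 genes edgeR called 0, beside 1.21% of all genes, and DESeq2 called *Foxc2*, beside 5.81%. *Foxc1* and *Foxc2* were higher at an unadjusted p below 0.05 by edgeR, beside 8.89% of all genes. The 7 tested members with a single exon had a median log2 fold change of 0.60, and 6 of them were above 0, whereas the other 21 had a median of 0.04, with 11 above 0. The same split was not made over all genes tested, so it is not known to be particular to the family. The GC content of the tested members' longest transcripts was 41.2% to 69.1%. Its median was 55.5%, against 49.7% over the 13566 genes tested that had a GC value. With a correction for GC content and length, *Foxo1* and *Foxp1* were the 2 members called, beside 0.991% of all genes.

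Genes up- and downstream of forkhead factors were read from 5 lists, of which 3 genes were called by edgeR. Over all genes, edgeR called 1.21%, DESeq2 5.81% and limma-voom 4.52%. At an unadjusted p below 0.05 by edgeR, 8.89% of all genes were higher in LRCs and 9.53% lower. In the FoxO regulator list, which holds insulin receptors, Akt kinases and 14-3-3 proteins, 0 of 28 tested genes were called by edgeR, DESeq2 or limma-voom. By edgeR 4 had an unadjusted p below 0.05, 1 higher and 3 lower, and the median log2 fold change was 0.00. The smallest p in it belonged to *Ywhaq*, a 14-3-3 protein that holds phosphorylated FoxO in the cytoplasm. *Ywhaq* was at 549, 771 and 841 CPM in LRCs and 911, 1572 and 1576 CPM in non-LRCs, with a log2 fold change of −0.89 ± 0.14 (SE; edgeR adjusted p = 0.0540). Its groups did not overlap. *Ywhah*, another 14-3-3 protein, and *Ep300*, an acetyltransferase, had log2 fold changes of −0.55 and 0.72, with edgeR adjusted p of 0.119 and 0.188.

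Of the FoxO targets, 29 of 34 were tested, 1 was called by edgeR, and the median log2 fold change was 0.12. The gene called was *Txnip*, an inhibitor of thioredoxin, which was at 53.9, 35.0 and 33.7 CPM in LRCs and 186, 150 and 65.7 CPM in non-LRCs. Every LRC library lay below every non-LRC library, and *Txnip* fell by 1.62 ± 0.25 (SE) on the log2 scale (edgeR adjusted p = 0.0489). The call was lost without the block (edgeR adjusted p = 0.24), without experiment 1 (0.167) and with the GC and length correction (0.0511). *Bcl2l11*, the pro-apoptotic Bim, was at 33.3, 43.3 and 27.7 CPM in LRCs and 12.6, 21.7 and 7.02 CPM in non-LRCs. Its groups did not overlap either, and the log2 fold change was 1.46 ± 0.26 (SE; edgeR adjusted p = 0.0648). *Bnip3*, a mitophagy receptor, had −1.03 (edgeR adjusted p = 0.0882). At an unadjusted p below 0.05 by edgeR, 6 targets were higher and 4 lower, beside 8.89% and 9.53% of all genes. DESeq2 called 5 targets, 3 higher (*Bcl2l11*, *Ccng2* and *Rbl2*) and 2 lower (*Txnip* and *Bnip3*), and limma-voom called the same except *Bnip3*. Of all genes, DESeq2 called 5.81% and limma-voom 4.52%.

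Of the 19 FoxM1 targets, which act in G2 and mitosis, 18 had log2 fold changes below 0, the median was −0.79, and edgeR called 0. DESeq2 called *Birc5* and *Ccnb1*, beside 5.81% of all genes, and limma-voom *Birc5*, beside 4.52%. At an unadjusted p below 0.05 by edgeR 6 were lower and 0 higher, beside 9.53% and 8.89% of all genes. *Birc5* (survivin) was at 9.03, 8.46 and 28.8 CPM in LRCs and at 22.0, 23.6 and 45.7 CPM in non-LRCs. Within each experiment the LRC library was the lower, with a log2 fold change of −1.14 ± 0.25 (SE; edgeR adjusted p = 0.0911). *Ccna2* and *Ccnb1*, cyclins of G2 and mitosis, had −0.79 and −1.08. LRCs were sorted by retained label and the study examined mitotic genes in these libraries, so the direction of this list is not independent evidence.

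The hypertrophy list, which holds genes of the zone that FoxA factors are known for, had 13 tested genes, of which 11 were below 0. Of the 13, 2 were called by edgeR, 5 by DESeq2 and 3 by limma-voom, beside 1.21%, 5.81% and 4.52% of all genes. At an unadjusted p below 0.05 by edgeR, 6 were lower and 2 higher, beside 9.53% and 8.89% of all genes. The 2 higher were *Runx2* and *Vegfa*, with log2 fold changes of 0.50 and 0.37 (edgeR adjusted p of 0.268 and 0.257). *Panx3*, a channel protein, fell by 4.01 ± 0.36 (SE) on the log2 scale, and *Mef2c*, a hypertrophy factor, fell by 2.35 ± 0.21 (edgeR adjusted p = 0.0177 for both). Both calls were lost without the block, with edgeR adjusted p of 0.272 and 0.321. *Panx3* was at 8.86, 6.79 and 60.1 CPM in LRCs and 178, 176 and 494 CPM in non-LRCs. The study picked several genes of this list from these libraries, so its direction is not independent evidence. In the same pairs *Foxa2* and *Foxa3* had the smaller differences given above. The hedgehog response list, whose genes answer to *Ihh*, as FoxF factors are known to, had 4 tested genes, of which edgeR called 0. *Hhip*, a hedgehog antagonist, had a log2 fold change of 1.16 (edgeR adjusted p = 0.1252; DESeq2 adjusted p = 0.00129), *Gli1* one of −1.36 and *Ptch1* one of 0.26. *Hhip* was the 1 gene at an unadjusted p below 0.05 by edgeR, beside 8.89% of all genes higher in LRCs. Both DESeq2 and limma-voom called *Hhip*. With experiment 2 left out edgeR called it too, at 1.60 (edgeR adjusted p = 0.00646).

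**Figure D5:**
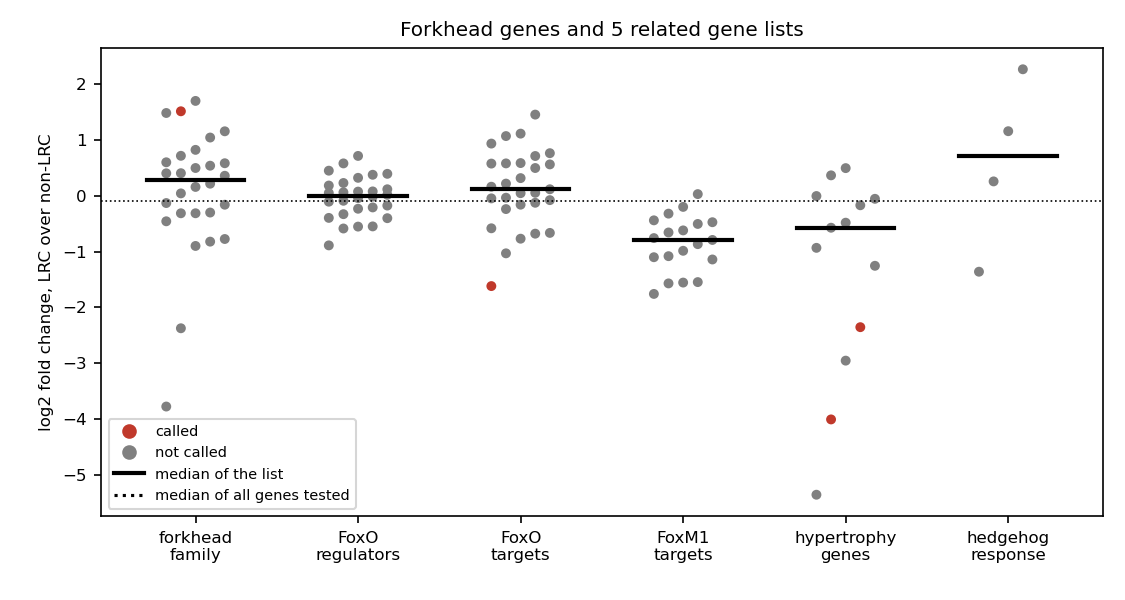
Log2 fold change (LRC over non-LRC) of each tested gene in the forkhead family and the 5 related lists, with a thick line at each median and a dotted line at the median of all genes tested (−0.10). The called genes are *Foxp1*, *Txnip*, *Panx3* and *Mef2c*, and the FoxM1 target median of −0.79 lies below the dotted line.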

How the data were processed

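RNA-seq libraries of LRCs and non-LRCs from 3 experiments were analysed. The authors aligned single-end reads to mm10 (GRCm38) with TopHat2 2.0.13 and Bowtie2 2.2.1, per the submitters' processing notes, and counted reads per gene with HTSeq. The deposited raw counts of 23159 genes were the input of all tests. Another deposited table, a signal obtained by the authors on dividing the counts by a size factor of each library, was checked against the raw counts (equal within 1e-06) and not tested. The deposited rlog values (log2 scale, by the authors) were not used. The annotation release and strand setting are not given in the sources used here.

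The tests were run with edgeR 4.0.16 in R 4.3.3, after filterByExpr (minimum count 10, minimum total count 15). A quasi-likelihood model with TMM factors, the experiment as a block and a prior count of 0.125 was fitted, and p-values were adjusted by the Benjamini-Hochberg method. The block follows the paired analysis of the study's methods, which used DESeq2. Deviations from the group means correlated between the libraries of 1 experiment with Pearson r of 0.197, 0.288 and 0.336 across genes. CPM values were TMM-normalized, and log2 differences within an experiment used a prior count of 2. Total counts per library were between 18943789 and 129559872. No 2 libraries of a group were copies (chi-square per gene of 192 or more). Each library came from pooled littermates, and the block removes differences in level between experiments. The p-values of the blocked fits therefore rest on how the LRC to non-LRC difference varied between experiments, and not on the spread between mice. The fits also share information on variance across genes, so these p-values do not rest on the pairs of a single gene only. The SE of an edgeR fit was the log2 coefficient, before the prior count, divided by the square root of the F statistic.

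The settings tried besides were no block, DESeq2 1.42.0, limma-voom (limma 3.58.1), size factors from DESeq2, a minimum of 10 counts in each library, no filter, thinning to the smallest total, a correction for GC content and length, a prior count of 2, and each experiment left out. Coordinates, exon lengths and GC content came from GENCODE vM21 on GRCm38, to which 20778 symbols matched directly, 1918 by an older symbol and 463 not. Levels per kb divided CPM by the exon length, merged over all annotated transcripts of the gene.

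Per-library values and statistics were given for each tested member with an unadjusted p below 0.05, or with 1 sign in all 3 experiments and a fold change of at least 1.5, and short values for the others. Fuller values of *Foxa2*, *Foxa3* and *Foxm1* were added after their values were seen. Of the related lists, genes called and otherwise up to 3 with the smallest p were named. *Runx2* and *Vegfa* were added after their values were seen. Not every member that failed the count filter is named here. The members and lists were chosen with earlier results of these data known.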

Additional observations from a re-analysis of the deposited data

How the results depend on the processing

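The number of forkhead members called (1 as reported) was 0 without the replicate block, 4 with DESeq2, 3 with limma-voom, 2 with DESeq2 size factors in edgeR, 3 with at least 10 counts in every library, 2 with no filter, 2 with thinned libraries and 2 with the GC and length correction, and 0 to 3 when experiments were left out. Over the same order of settings, 166 genes in all became 1, 799, 621, 179, 434, 221, 176 and 136 (35 to 555 with an experiment left out), and 3 genes of the related lists became 0, 13, 9, 3, 8, 3, 3 and 2 (2 to 7). Members at an unadjusted p below 0.05 (7) were 5 to 12 with an experiment left out and 6 to 9 otherwise. Over all genes, the 2529 at this p became 1564 to 3725 and 1289 to 3493 in the same settings. With the replicate block removed, the *Foxp1* log2 fold change stayed at 1.51 with an adjusted p of 0.178. A prior count of 2 left the calls at 1 member and 166 genes.

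Genes with intervals spanning 0 turned sign in some settings. With single experiments left out, log2 fold changes ran from −0.56 to 0.028 for *Foxa3*, −0.090 to 0.67 for *Foxf1a*, −0.40 to 0.079 for *Foxf2*, −1.20 to 0.22 for *Foxj1*, −0.73 to 0.74 for *Foxj2*, −0.61 to 0.80 for *Foxk1*, −0.60 to 0.057 for *Foxk2*, −0.19 to 0.91 for *Foxm1*, −0.10 to 0.31 for *Foxn2*, −2.44 to 0.57 for *Foxo3*, −0.64 to 1.75 for *Foxp2*, −0.22 to 0.46 for *Foxr1* and −0.11 to 0.48 for the hedgehog receptor *Ptch1*. Under limma-voom the values that turned sign were *Foxj1* (0.10), *Foxj2* (0.40), *Foxk1* (−0.071), *Foxo3* (0.15) and *Ptch1* (−0.0085), without the replicate block *Foxj1* (0.11) and *Foxj2* (0.14), with the GC and length correction *Foxk1* (−0.0017) and with thinned libraries *Foxr1* (−0.025). The cause was not tested. In LRC 2, the shallowest library, 1 count is worth 0.0478 CPM, and the part of depth in these turns was not tested.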
